A study of Mus musculus with 2 samples.

Results

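Glucose entry into the islet cell and the first steps of its use were followed through 9 genes, out of 31053 in the gene list of the deposited matrices. They are the glucose transporters Slc2a2 and Slc2a1, the islet glucose-6-phosphatase G6pc2, the bifunctional enzyme Pfkfb2, the glucose-responsive transcription factor Mlxipl, the pyruvate carboxylase Pcx, the hexokinase Hk1, the lactate dehydrogenase Ldha and the monocarboxylate transporter Slc16a1. The genes were chosen by name for their role, including some that β cells are known to keep low. All were found in the gene list by their symbols.

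A β cell senses glucose by metabolising it. Glucose enters in mice mainly through GLUT2, the product of Slc2a2, a transporter of high capacity and low affinity, and is then phosphorylated, while high-affinity hexokinases such as Hk1 are kept low. G6pc2 works against that step by removing the phosphate again, Pfkfb2 makes and breaks fructose 2,6-bisphosphate, the activator of phosphofructokinase, and Mlxipl encodes ChREBP, which turns on glycolytic and lipogenic genes when glucose is high. Pyruvate then goes to the mitochondria, where pyruvate carboxylase (Pcx) uses a large part of it. Little is turned into lactate, since Ldha and the transporter MCT1 (Slc16a1) are among the genes that mature β cells repress.

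Single-cell RNA sequencing (10x Genomics 3′ libraries, in which each unique molecular identifier, or UMI, counts 1 captured transcript) was done on islets of male C57/B6 mice aged 16 weeks. The WT library came from wild-type mice, and the HFD library from mice of the same strain that had eaten a diet with 60% of its kcal as fat since the age of 6 weeks, which is 10 weeks of feeding. The islets of 4 animals went into each library as a pool, and a kit took out dead cells before capture. There was thus 1 library per group, so differences between groups had no replicate check, no test was made, and all intervals given are exact 95% intervals that cover counting error only. Diet and library cannot be told apart.

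The WT library held 3895 barcodes and 73843674 UMIs, and the HFD library 8951 barcodes and 94375138 UMIs, with medians of 12425 and 9627 UMIs per barcode. Barcodes with at least 500 genes and at most 20% of UMIs from mitochondrial genes were kept, with no UMI maximum. The doublet caller Scrublet marked 1 and 0 barcodes by its own threshold and so had not worked. The barcodes with its highest scores, 121 in WT and 640 in HFD, were left out instead, which left 2497 and 6674 cells. The libraries shared 9 barcodes, of which 3 were among the cells kept.

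β-like cells numbered 1924 in WT (77.1% of kept cells) and 5858 in HFD (87.8%). All 8 of their markers (Ins1, Ins2, Iapp, Nkx6-1, Pdx1, Mafa, Ucn3 and Slc30a8) were detected in both libraries. The median was 29537 UMIs per β-like cell in WT and 11926 in HFD. The β-like cells of the 2 libraries lay mostly in different clusters. Clusters 4, 5, 6 and 7 held 829, 469, 286 and 186 of the WT cells, whereas clusters 0, 1, 2 and 3 held 1322, 1266, 1200 and 1050 of the HFD cells. The part of this split and of the gap in depth in the differences between libraries was not tested. Classes with at least 20 cells were compared with β-like cells within each library. There were 7 such classes in WT (α-, δ-, ductal-, endothelial-, fibroblast/stellate-, pericyte- and macrophage-like cells) and 8 in HFD, where pericytes were too few and γ- (PP) and T-like cells were added. The larger of the 2 δ-like clusters was led by Ghrl as well as Sst.

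Levels are given as UMIs per 1000000 UMIs of the class (CPM). Of the 9 genes, 5 were at least 2-fold above the median of the other classes in both libraries (Slc2a2, G6pc2, Pfkfb2, Mlxipl and Pcx), and 3 were at least 2-fold below it (Slc2a1, Hk1 and Ldha). Over 15803 genes the same rule called 25.1% higher and 19.4% lower, but 3465 of the 3967 genes called higher had a median of 0 in the other classes. Among genes with a median above 0 in both libraries, as all 5 of these had, 4.93% were called higher. Slc16a1 was not called, since its median over the other classes of HFD was 0. The size of these ratios moved with the settings, by more than 1.5 times for each of the 8 genes called. Over the alternatives run, the ratio of β-like cells to the median of the other classes ran from 19.5 to 64.0 for Slc2a2, from 18.0 to 67.7 for G6pc2 and from 2.87 to 21.7 for Mlxipl, and the highest values of Slc2a2 and Mlxipl came with hormone and mitochondrial genes left out.

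**Figure D1:**
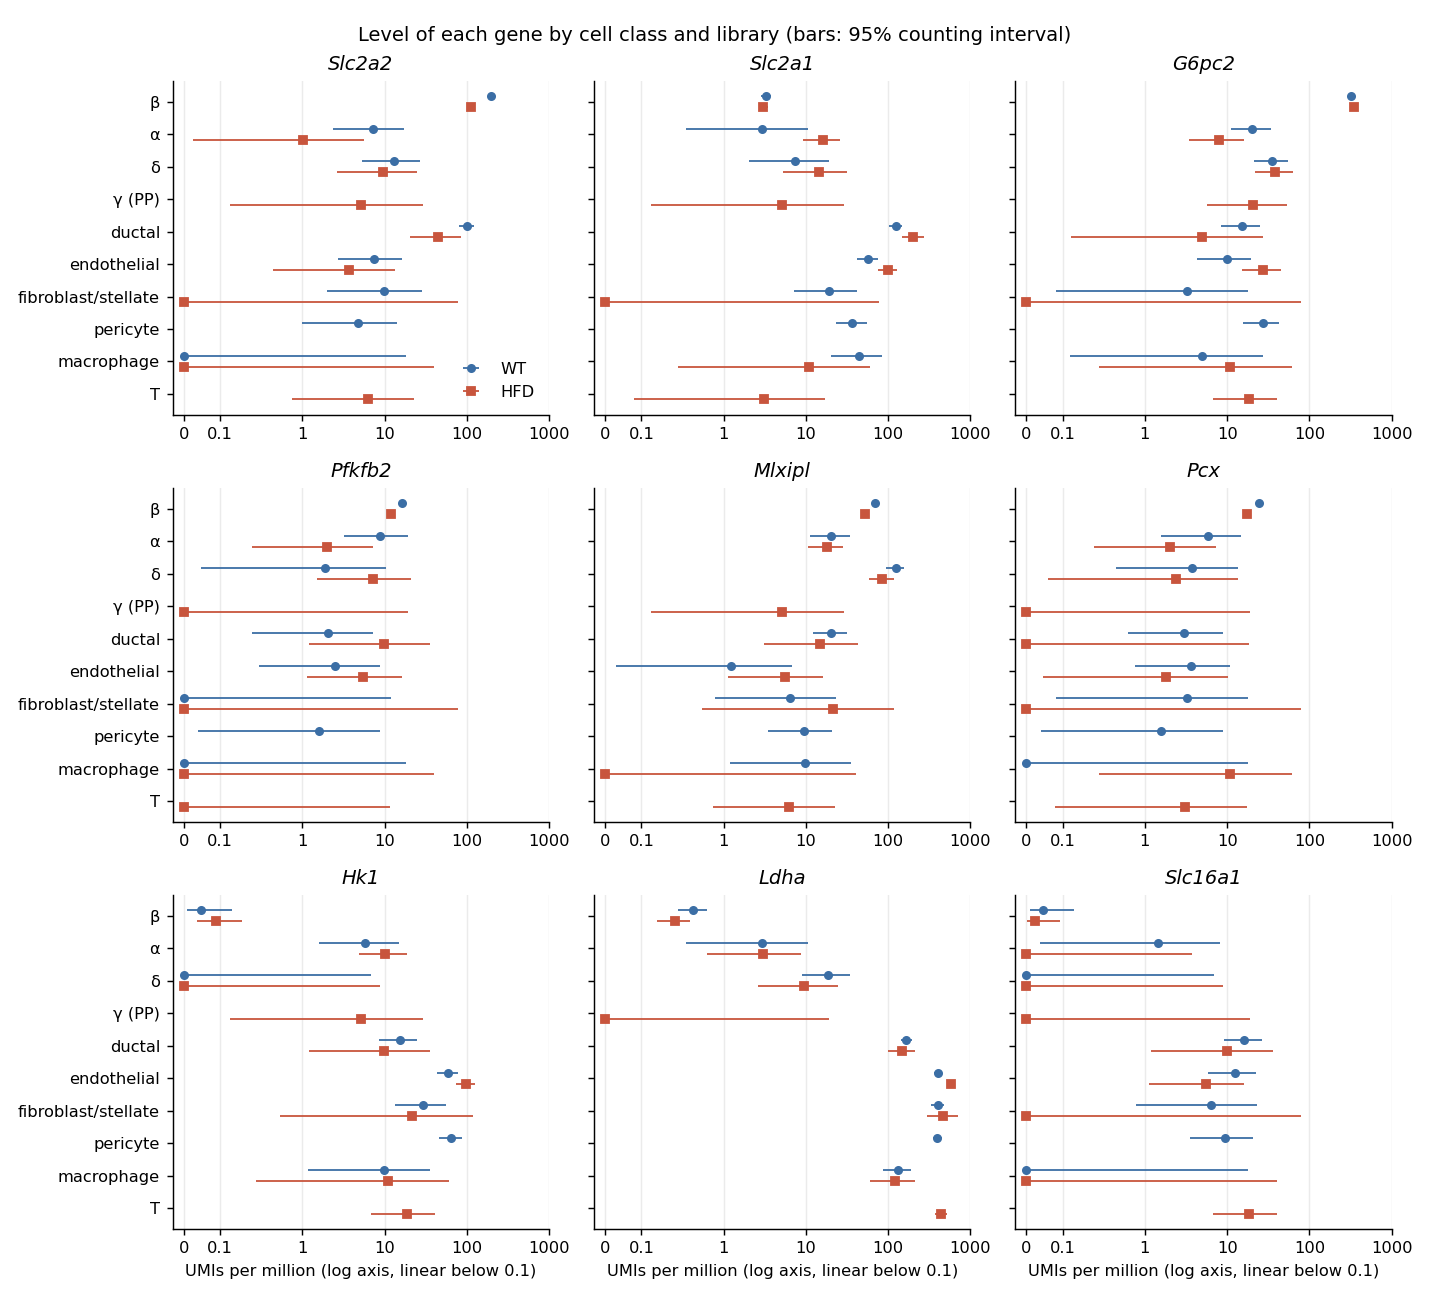
CPM for each of the 9 genes (log axis, linear below 0.1) in every class with at least 20 cells, for WT (blue circles) and HFD (red squares), with bars for the 95% counting interval. On this scale Slc2a2, G6pc2, Pfkfb2 and Pcx had their highest values in β-like cells and Mlxipl in δ-like cells. For Pfkfb2 and Pcx the intervals of some other classes reached the β-like level. Hk1 and Ldha lay below 1 CPM in β-like cells.

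Slc2a2 (chromosome 3: 28697903 to 28731359, plus strand, GRCm38 as for all positions here) gave 12244 UMIs in WT β-like cells and 8766 in HFD β-like cells. Its level there was 194 CPM in WT (190.3 to 197) and 111 CPM in HFD (109 to 113), which was 26.3 and 25.2 times the median of the other classes. β-like cells had the highest level of all classes in both libraries. Ductal-like cells came next, with 98.9 CPM in WT (80.3 to 120.5, 98 UMIs) and 44.6 CPM in HFD (20.4 to 84.6, 9 UMIs). In the ductal-like cells the insulin genes were at 2.89% and 1.47% of their level in β-like cells, and at those ratios RNA from β cells would account for 5.60 and 1.63 CPM of Slc2a2. The ductal level was 17.7 and 27.3 times that value. In α-, δ- and endothelial-like cells of both libraries Slc2a2 stood between 1.01 and 13.0 CPM, on 1 to 7 UMIs, and within a library the intervals of these classes overlapped.

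Slc2a1 (chromosome 4: 119108711 to 119137983, plus strand) encodes GLUT1, the widely used high-affinity transporter. Its level in β-like cells was 3.24 CPM in WT (2.81 to 3.72) and 3.04 CPM in HFD (2.67 to 3.45). Of the other classes, 6 of 7 in WT and 7 of 8 in HFD had values above that, but not all intervals left out the β-like level. T-, γ- (PP) and macrophage-like cells of HFD had 1 UMI each, with intervals that held it. The δ-like value of WT, 7.44 CPM (2.03 to 19.0) on 4 UMIs, did so too. The HFD median of 12.6 CPM lay between the macrophage- and δ-like values, 10.9 and 14.4 CPM on 1 and 6 UMIs. Ductal-like cells were highest, at 124 CPM in WT (103 to 148) and 203 CPM in HFD (146 to 276), followed by endothelial-like cells with 56.5 and 98.8 CPM. With the hormone and mitochondrial genes left out of the totals, which raises the scale of β-like cells most, the ratio of β-like cells to the median of the other classes was 0.262 in WT and 0.529 in HFD, so the call of a lower level in both libraries was lost.

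G6pc2 (chromosome 2: 69211073 to 69227841, plus strand) reached 317 CPM in β-like cells of WT (313 to 322) and 349 CPM in those of HFD (345 to 353), 21.0 and 23.7 times the median of the other classes, and was the only one of the 9 genes at least 2-fold above every other class in both libraries. The next class was δ-like cells in both, with 35.3 and 38.4 CPM. At the insulin level of the δ-like cells, RNA from β cells would account for 23.0 and 25.6 CPM of that.

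Pfkfb2 (chromosome 1: 130689182 to 130729253, minus strand) had 16.0 CPM in WT β-like cells (15.1 to 17.1) and 11.9 CPM in those of HFD (11.2 to 12.7), 8.63 and 11.8 times the median of the other classes. No other class had more than 6 UMIs of it. With a minimum of 1000 genes per cell the HFD ratio was 1.98 and the call was lost. Pcx (chromosome 19: 4510472 to 4621752, plus strand) had 24.6 CPM in β-like cells of WT (23.4 to 25.9) and 17.6 CPM in those of HFD (16.7 to 18.6), with at most 4 UMIs in any other class. For both genes β-like cells had the highest value in both libraries. Only for Pcx in WT did no interval of another class reach the β-like level, so the first rank was not settled elsewhere. For Pfkfb2 in WT, α-like cells had 8.70 CPM (3.19 to 18.9), where RNA from β cells would account for 0.487 CPM. For Pcx in HFD, macrophage-like cells had 10.9 CPM on 1 UMI, with an interval up to 60.7 CPM. The order of the other classes was not detectable at this depth.

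Mlxipl (chromosome 5: 135089890 to 135138382, plus strand) was, on the scale of all UMIs, the exception among the genes higher in β-like cells. Its level there was 70.1 CPM in WT (68.0 to 72.1) and 51.8 CPM in HFD (50.2 to 53.4). δ-like cells had more in both libraries, with 123 CPM in WT (94.9 to 156, 66 UMIs) and 84.0 CPM in HFD (58.5 to 117, 35 UMIs), and neither interval reached the β-like level. RNA from β cells would account for 5.07 and 3.79 CPM of it. This order was read on the scale of all UMIs. Leaving out hormone and mitochondrial genes raises the scale of β-like cells most. Their Mlxipl ratio to the median of the other classes then went from 7.17 to 21.7 in WT and from 4.92 to 11.3 in HFD. The 8 β markers, insulin genes among them, summed to 646362 CPM in β-like cells of WT and 635492 CPM in those of HFD. The 5 δ markers, Sst among them, summed to only 121362 and 148035 CPM in δ-like cells. The δ-like level on that scale was not computed. The higher δ-like level thus holds only on the scale of all UMIs, and the order could differ on the other. α-like cells had 20.3 and 18.1 CPM, where 2.13 and 1.26 CPM would be accounted for, and ductal-like cells 20.2 and 14.9 CPM, where it would be 2.02 and 0.760 CPM. The order of α-like, ductal-like and, in HFD, fibroblast/stellate-like cells (21.2 CPM on 1 UMI) was not detectable, since their intervals overlapped. The transcript of ChREBP was thus above the level that RNA from β cells would give in δ-, α- and ductal-like cells, whereas Slc2a2 and G6pc2 stood in δ-like cells at 0.929 to 1.54 times the level that RNA from β cells would give.

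The genes named for their repression in β cells were close to the limit of detection there. Hk1 (chromosome 10: 62268855 to 62379908, minus strand) gave 3 UMIs among 63196398 in WT β-like cells and 7 among 78921293 in HFD, which is 0.0475 CPM (0.00979 to 0.139) and 0.0887 CPM (0.0357 to 0.183). It was highest in pericyte-like cells of WT, at 63.5 CPM, and in endothelial-like cells of HFD, at 97.0 CPM. δ-like cells had no Hk1 UMI in either library. The floor used for a count of 0, which is 3 UMIs and not an exact interval, was 5.58 CPM in WT and 7.20 CPM in HFD. α-like cells had 5.80 and 10.1 CPM on 4 and 10 UMIs.

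Ldha (chromosome 7: 46841475 to 46855627, plus strand) gave 27 UMIs in WT β-like cells and 20 in HFD, or 0.427 CPM (0.282 to 0.622) and 0.253 CPM (0.155 to 0.391). The median of the other classes was 390 and 530 times higher. With a minimum of 1000 genes per cell the ratio of β-like cells to that median in HFD was 0.0458 in place of 0.00189. Endothelial-like cells had the highest level, with 402 CPM in WT (359 to 448) and 575 CPM in HFD (513 to 642). The other hormone cells were low as well, with 2.90 and 3.02 CPM in α-like cells and 18.6 and 9.60 CPM in δ-like cells. Ldha has processed pseudogenes in the genome, and reads that match several of them are not counted, so its level is uncertain.

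Slc16a1 (chromosome 3: 104638668 to 104658462, plus strand) gave 3 UMIs in WT β-like cells and 2 in HFD. Its highest levels were 16.1 CPM in ductal-like cells of WT (9.23 to 26.2) and 18.6 CPM in T-like cells of HFD (6.82 to 40.5), on 16 and 6 UMIs. δ-like cells had none in both libraries, and α-like cells had 1 and 0 UMIs.

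Transcripts of other cells also reach β-like barcodes. For each other class the summed level of its markers in β-like cells was taken as a share of that in the class itself, and the gene's level in the class was multiplied by that share. Added over the classes this gave 0.220 and 0.257 CPM for Hk1, 2.20 and 2.27 CPM for Ldha, and 0.150 and 0.105 CPM for Slc16a1, in WT and HFD. All 3 genes were measured below those values in β-like cells, so the estimate was too high for them. Their UMIs cannot be told apart from RNA of other cells, and no expression in β cells can be read from them. For Slc2a1 the sum was 1.27 and 2.34 CPM, below the 3.24 and 3.04 CPM measured, and for the 5 genes higher in β-like cells it was at most 1.84 CPM.

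The reference sequence before each gene's start was read to describe the promoters of genes high and low in β-like cells. For each gene the 250 bases before a RefSeq transcription start (build GRCm38.p6) were taken, choosing the window nearest to the start of the principal transcript. Those of 5 genes are shown, Slc2a2 and G6pc2, which had the highest ratios of β-like cells to other classes, and Hk1, Ldha and Slc16a1, all below 1 CPM there. Capitals mark the matches on either strand to CACGTG (the E box bound by many bHLH factors), GGGCGG (the GC box) and CCAAT, and TATAAA, which matched none of the 9 windows. The windows of Slc2a2, G6pc2, Ldha and Slc16a1 lie at chr3:28697653-28697902, chr2:69219699-69219948, chr7:46845554-46845803 and chr3:104638414-104638663 on the plus strand, and for Hk1 at chr10:62379909-62380158 on the minus strand.
Slc2a2: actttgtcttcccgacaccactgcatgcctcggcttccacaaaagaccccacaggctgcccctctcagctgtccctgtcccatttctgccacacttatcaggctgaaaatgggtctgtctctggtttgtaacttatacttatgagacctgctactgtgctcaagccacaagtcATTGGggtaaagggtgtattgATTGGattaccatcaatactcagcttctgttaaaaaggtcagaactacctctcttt
G6pc2: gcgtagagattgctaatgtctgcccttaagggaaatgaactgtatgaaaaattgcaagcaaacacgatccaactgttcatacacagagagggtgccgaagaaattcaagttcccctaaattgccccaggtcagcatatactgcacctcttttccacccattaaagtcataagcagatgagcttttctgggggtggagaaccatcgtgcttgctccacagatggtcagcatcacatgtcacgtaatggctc
Hk1: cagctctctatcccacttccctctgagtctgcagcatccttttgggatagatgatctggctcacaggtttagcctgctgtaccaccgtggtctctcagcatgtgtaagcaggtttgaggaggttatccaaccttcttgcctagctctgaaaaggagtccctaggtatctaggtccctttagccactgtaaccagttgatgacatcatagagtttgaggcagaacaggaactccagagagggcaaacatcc
Ldha: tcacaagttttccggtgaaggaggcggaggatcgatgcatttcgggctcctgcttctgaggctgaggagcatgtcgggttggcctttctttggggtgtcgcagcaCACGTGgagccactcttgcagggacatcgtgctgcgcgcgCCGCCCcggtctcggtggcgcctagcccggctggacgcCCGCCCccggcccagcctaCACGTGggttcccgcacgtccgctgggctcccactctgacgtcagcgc
Slc16a1: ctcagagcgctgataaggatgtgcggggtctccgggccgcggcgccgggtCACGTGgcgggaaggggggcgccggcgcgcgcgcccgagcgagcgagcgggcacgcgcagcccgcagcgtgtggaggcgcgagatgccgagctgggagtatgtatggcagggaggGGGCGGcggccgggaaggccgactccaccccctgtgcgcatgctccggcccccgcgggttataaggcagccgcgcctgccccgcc

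The Slc2a2 and G6pc2 windows were 47.2% and 46.0% G or C with 2 and 5 CpG dinucleotides, whereas the Ldha and Slc16a1 windows were 67.2% and 76.4% with 25 and 37. Over 32851 windows of the same length the medians were 52.4% and 6. The division did not hold for all 9 genes. The Hk1 window, of a gene low in β-like cells, had 49.6% and 1 CpG, and the windows of Pfkfb2, Pcx and Mlxipl had 66.8%, 60.8% and 53.2% with 11, 16 and 8 CpG. The Slc2a1 window had 66.4% and 13 CpG. RefSeq listed 3 windows for Pfkfb2 and 2 each for G6pc2, Mlxipl, Pcx, Hk1 and Ldha, of which only the nearest was read. Which start the counted transcripts used was not tested. CACGTG was found in 4 of the 9 windows (2 copies in Ldha, and 1 each in Slc16a1, Pfkfb2 and Pcx) against 6.02% of all windows. GGGCGG was in 5 of 9 against 32.7%, CCAAT in 3 of 9 against 33.8%, and TATAAA in none against 12.4%. These are matches of letters in a window, and binding was not measured.

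Between HFD and WT, the transporter Slc2a2 was the only one of the 9 genes called changed in β-like cells. Its level was 194 CPM in WT and 111 CPM in HFD, a ratio of 0.573 (0.558 to 0.589), or 1.74-fold lower in HFD. A ratio of at least 1.5 or at most its inverse, with an interval that leaves out 1, was called a change, for genes with at least 10 UMIs in both libraries together. Of the 9 genes 8 had enough UMIs, and of these 1 (Slc2a2) was lower and 0 were higher. Over all 14433 genes 5.94% were lower and 3.17% higher by the same rule. The median log2 ratio was -0.43 over the 8 genes and -0.03 over all genes.

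Of the other genes high in β-like cells, 3 had ratios below 1 that did not reach the fold. Mlxipl went from 70.1 to 51.8 CPM, a ratio of 0.739 (0.708 to 0.771). Pfkfb2 gave 0.742 (0.679 to 0.812) and Pcx 0.715 (0.664 to 0.769). G6pc2 lay on the other side of 1, with 317 CPM in WT and 349 CPM in HFD, a ratio of 1.10 (1.08 to 1.12). The transporter and the phosphatase, both found in nearly every WT β-like cell, thus stood on opposite sides of 1 in HFD.

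The genes low in β-like cells gave no call. The ratio was 0.937 for Slc2a1 (0.775 to 1.14), 0.593 for Ldha (0.315 to 1.10) and 1.87 for Hk1 (0.427 to 11.2). Slc16a1, with 3 and 2 UMIs, was not counted, and its ratio of 0.534 had an interval from 0.0446 to 4.66. No higher level of Ldha, Hk1 or Slc16a1 in HFD β-like cells was detectable at this depth. The levels of all 3 stayed below the estimates for transcripts of other cells, which were too high for these genes.

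**Figure D2:**
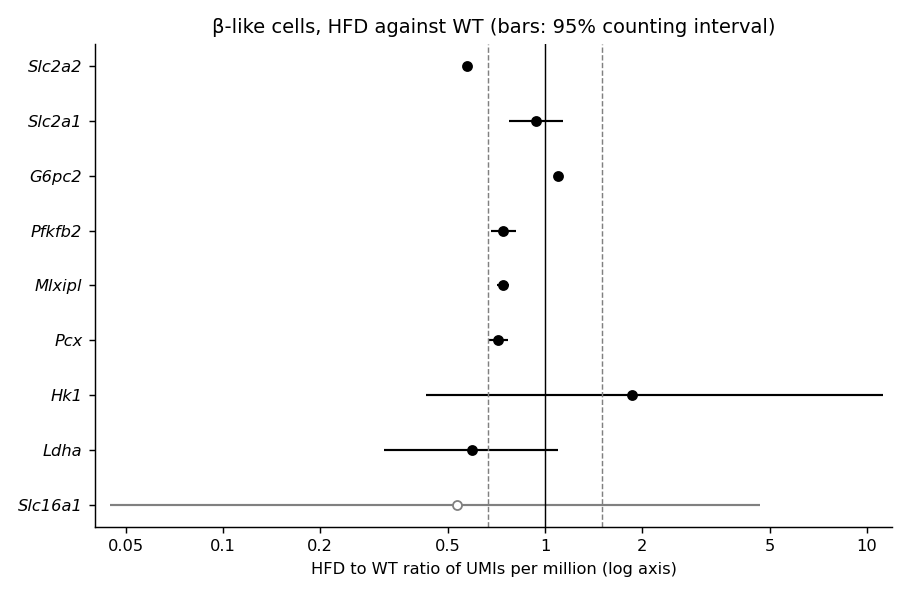
HFD to WT ratio of CPM in β-like cells (log axis) for the 9 genes, with bars for the 95% counting interval and dashed lines at a fold of 1.5 in either direction. Slc2a2 lay outside the lines at 0.573 with an interval that leaves out 1, and the open point is Slc16a1, which had too few UMIs to be counted.

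The libraries differed in UMIs per cell, so levels were also taken within bins of UMIs per β-like cell. In WT, Slc2a2 was between 187 and 212 CPM in all 5 bins. In HFD it was 129 CPM in cells under 5000 UMIs and 142 CPM from 5000 to 10000, then 114 CPM from 10000 to 15000, 103 CPM from 15000 to 30000 and 61.5 CPM above 30000. HFD was below WT in every bin, and the ratio ran from 0.712 (0.570 to 0.900) in cells of 5000 to 10000 UMIs to 0.328 (0.292 to 0.368) in cells above 30000. The deepest cells had the lowest level in both libraries, 187 CPM in WT and 61.5 CPM in HFD, and the bins differed more in HFD.

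G6pc2 held its level over depth, with 304 to 388 CPM in the WT bins and 309 to 365 CPM in the HFD bins, and no bin was called. Mlxipl was called lower in HFD in the 3 bins from 10000 UMIs upwards, with ratios of 0.461, 0.593 and 0.557. Under 5000 UMIs it was called the other way, with 35.3 CPM against 95.8 CPM in HFD, a ratio of 2.71 (1.44 to 5.66) on 11 and 80 UMIs. A further 76 barcodes of the WT library with a median of 1192 UMIs formed a cluster that was left unnamed, since its depth was low and no β marker was among its 10 leading genes, and Prlr, Mlxipl and Pfkfb2 were among its leading genes, so the WT value of the lowest bin lacks those cells. Pcx was called lower in the same 3 bins as Mlxipl, with ratios of 0.586, 0.604 and 0.585. Pfkfb2 was called lower from 10000 to 15000 UMIs, at 0.548 (0.358 to 0.879), and above 30000, at 0.633 (0.464 to 0.846). It was not called in the other bins.

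In cells of 15000 to 30000 UMIs, where both libraries had many (744 in WT and 1798 in HFD), 4 of the genes were lower in HFD. The ratio was 0.491 for Slc2a2 (0.468 to 0.514), 0.593 for Mlxipl (0.552 to 0.637), 0.604 for Pcx (0.534 to 0.684) and 0.252 for Ldha (0.0765 to 0.743, on 11 and 6 UMIs). In those cells 11.3% of all genes tested were lower and the median log2 ratio of all genes was -0.19, against 5.94% and -0.03 over all β-like cells. The Ldha UMIs cannot be told apart from RNA of other cells, so its call says nothing of Ldha in β cells.

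**Figure D3:**
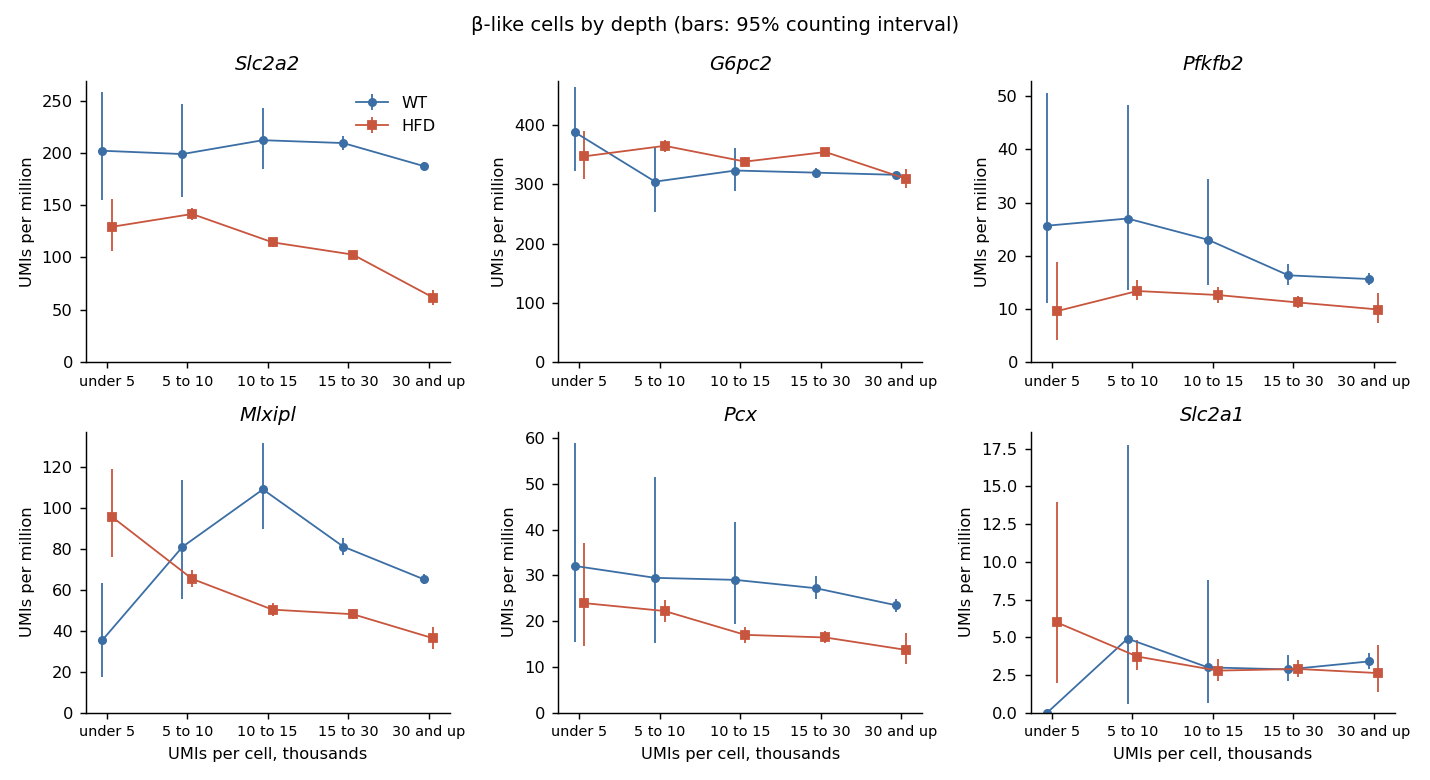
CPM in β-like cells against UMIs per cell, in 5 bins, for 6 of the genes in WT (blue circles) and HFD (red squares), with bars for the 95% counting interval. Slc2a2 in HFD was 129 in the first bin and went from 142 in the second to 61.5 in the last, and stayed between 187 and 212 in WT, whereas G6pc2 overlapped between libraries in most bins.

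Single cells were then compared at 1 depth, a view added after the data had been seen. The 744 and 1798 cells of 15000 to 30000 UMIs were thinned at random to 15000 UMIs each. Slc2a2 had a mean of 3.10 UMIs per cell in WT and 1.57 in HFD, with medians of 3 and 1. It was at 0 in 10.9% of WT cells (8.74 to 13.3) and 27.6% of HFD cells (25.5 to 29.7). If all cells of a library had the same level, counting alone would leave 4.51% and 20.9% at 0, so more cells were at 0 than that in both libraries. The ratio of variance to mean, which is 1 for counting alone, was 1.82 in WT and 1.38 in HFD.

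G6pc2 had means of 4.73 and 5.30 UMIs per cell at that depth and was at 0 in 2.96% and 1.17% of cells. Mlxipl had means of 1.24 and 0.744, with 32.1% and 49.3% of cells at 0 and variance to mean ratios of 1.21 and 1.11. Pcx, with a variance to mean ratio of 0.9995 in WT and 1.03 in HFD, varied between cells about as counting alone would give. The ratio grows with the mean, so it does not rank the genes.

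Over all β-like cells thinned to 2000 UMIs, Slc2a2 had a UMI in 31.8% of 1909 WT cells (29.7 to 33.9) and 20.9% of 5845 HFD cells (19.9 to 22.0). The unthinned shares were 92.6% and 69.1%. In endothelial-like cells, which should lack it, the thinned share was 0.870% of 115 WT cells and 0 of 103 HFD cells, at medians of 4493 and 3175 UMIs before thinning. For that 0 the floor of 3 counts, which is not an exact interval, is 2.91%. Mlxipl had a UMI in 14.1% and 10.3% of the thinned β-like cells, and G6pc2 in 46.3% and 48.7%, with overlapping intervals for G6pc2. Thinning left out 15 WT and 13 HFD cells with fewer UMIs.

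Clustering the β-like cells again gave 9 subclusters, and Slc2a2 differed between them within a library. In HFD its lowest level, 69.6 CPM, was in subcluster 2, which was led by Dapl1, Pappa2 and Gc and held 1067 HFD and 14 WT cells. Subcluster 0, with 2192 HFD and 19 WT cells and led by acinar enzyme genes such as Try5 and Ctrb1, stood at 104 CPM, and subcluster 1, with 1735 HFD and 21 WT cells and led by Nupr1 and Mt1, at 159 CPM. These 3 subclusters held most HFD cells and almost no WT cells. In WT the highest level, 249 CPM, was in subcluster 4.

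In the 5 subclusters with at least 20 cells of both libraries, the HFD to WT ratio of Slc2a2 ran from 0.608 (0.539 to 0.685) in subcluster 5 to 1.33 (1.01 to 1.74) in subcluster 6, which held 304 WT and 33 HFD cells. It was 0.648 (0.588 to 0.714) in subcluster 4, with 517 WT and 361 HFD cells. In subcluster 3, led by Fos and Dusp1 and with 813 WT and 90 HFD cells, it was 0.817 (0.694 to 0.955). In subcluster 1, with 21 WT cells, it was 1.27 (0.993 to 1.65). HFD was thus below WT in 3 of the 5 subclusters and above WT in subclusters 1 and 6. Of the 3 below, those at 0.608 and 0.648 were past the fold. Subcluster 5, at 0.608, was led by Pyy, Sst, Ppy, Rbp4 and Gcg, which include hormone genes of other islet cells. Insulin genes made up 49.2% of its UMIs, the lowest share of any subcluster. Whether its barcodes held RNA of more than 1 cell was not tested. In the clusters of all cells the Slc2a2 ratio was 0.958 (0.831 to 1.11) in cluster 1 and 0.917 (0.809 to 1.04) in cluster 6. It was 0.855 (0.773 to 0.945) in cluster 4, 0.731 (0.643 to 0.827) in cluster 5 and 0.622 (0.553 to 0.699) in cluster 7. The ratio of G6pc2 lay between 1.02 and 1.19 in the same 5 subclusters.

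Within the HFD library, the 780 β-like cells with a UMI of Aldh1a3, a gene of retinoid synthesis that is used as a mark of β cells losing their identity, had 77.0 CPM of Slc2a2 against 118 CPM in the 5078 cells without one. Their median depth was 16270.5 UMIs against 11445.5, and Slc2a2 was lower in deeper HFD cells, so the 2 relations cannot be told apart.

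Outside β-like cells, Slc2a1 was called higher in HFD in 3 classes. In α-like cells it had 2 UMIs in WT and 16 in HFD, or 2.90 and 16.1 CPM, a ratio of 5.55 (1.30 to 49.7). It was the only one of 4 genes counted there that was called, where 1.44% of genes were higher. The α-like cells of the libraries lay mostly in different clusters, with 31 of 54 WT cells in cluster 12 and 144 of 198 HFD cells in cluster 11. Their median depths were 10728.5 and 4477.5 UMIs. In macrophage-like cells Slc2a1 went the other way, from 43.95 to 10.9 CPM on 9 and 1 UMIs, a ratio of 0.248 (0.00565 to 1.79) that was not called, and fibroblast/stellate-like cells had 6 and 0 UMIs. In ductal-like cells Slc2a1 went from 124 to 203 CPM, a ratio of 1.64 (1.12 to 2.35). Slc2a2 was lower in those cells, from 98.9 to 44.6 CPM, a ratio of 0.451 (0.2002 to 0.892). Of 7 genes counted in ductal-like cells 1 was thus higher and 1 lower, against 4.27% and 5.10% of genes. These values rest on 58 WT and 33 HFD cells.

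In endothelial-like cells 3 of 5 genes counted were higher in HFD, against 3.92% of genes. Slc2a1 went from 56.5 to 98.8 CPM (ratio 1.75, 1.16 to 2.65), and Hk1 from 59.0 to 97.0 CPM (1.64, 1.09 to 2.48). Ldha, at 402 and 575 CPM, had a ratio of 1.43 (1.22 to 1.68) and was not past the fold. G6pc2 was called too, with 8 and 15 UMIs and a ratio of 2.79 (1.11 to 7.61), but at the insulin level of these cells RNA from β cells would give 10.0 and 16.9 CPM against the 9.83 and 27.5 CPM measured. The endothelial-like cells of the 2 libraries lay mostly in different clusters, with 81 of 121 WT cells in cluster 9 and 134 of 144 HFD cells in cluster 8. In δ-like cells none of 5 genes counted was called, and Mlxipl had a ratio of 0.684 (0.441 to 1.05).

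**Figure D4:**
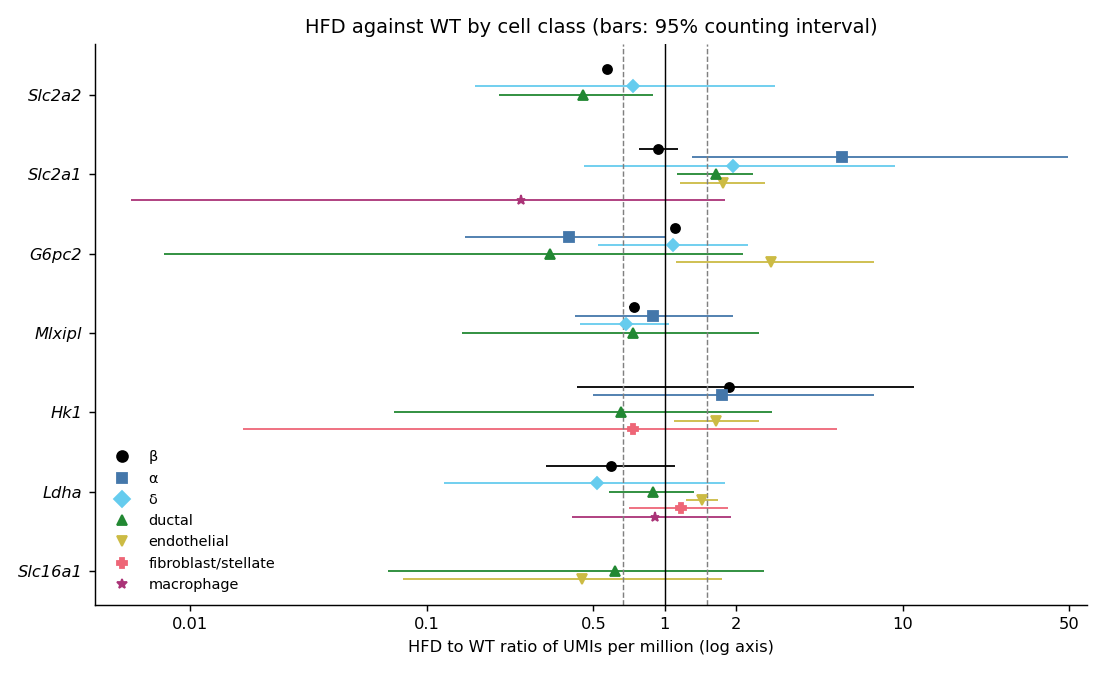
HFD to WT ratio of CPM (log axis) by cell class, for the genes counted in at least 1 class other than β-like cells, with bars for the 95% counting interval and dashed lines at a fold of 1.5. Slc2a1 lay above 1 in α-, δ-, ductal- and endothelial-like cells, at 0.937 in β-like cells and at 0.248 in macrophage-like cells, and Slc2a2 was lower in β- and ductal-like cells.

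The genes around these 9 in glucose metabolism were described through 6 lists of 88 genes in all, of which 77 had enough UMIs in β-like cells. Of the 77, 3 were lower and 2 higher in HFD, against 5.94% and 3.17% of all genes, with a median log2 ratio of -0.03, equal to that of all genes. None of the 16 glycolytic enzymes was called, and their median was -0.08. Pgk1, the phosphoglycerate kinase, had the ratio farthest above 1 among them, at 1.45 (1.38 to 1.52).

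Of the 6 genes that set the level of fructose bisphosphates, Fbp2, a fructose bisphosphatase best known from muscle, was higher in HFD, with 5 UMIs in WT and 64 in HFD, a ratio of 10.2 (4.17 to 32.6) at a level below 1 CPM in both. Of 28 counted genes of pyruvate, lactate and shuttles, Me3, a mitochondrial malic enzyme, was higher, at 1.41 and 3.29 CPM (ratio 2.34, 1.83 to 3.01). Pdk4, a kinase that turns off pyruvate dehydrogenase, was lower, on 10 and 2 UMIs (ratio 0.160, 0.0171 to 0.752). Ldhb, the other common lactate dehydrogenase subunit, stood at 9.04 and 6.41 CPM in β-like cells, with a ratio of 0.710.

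Among 10 partners and targets of ChREBP, 2 were lower in HFD, where 5.94% of all genes were. Txnip, which binds thioredoxin and is a known ChREBP target, went from 124 to 81.1 CPM (ratio 0.652, 0.631 to 0.674), and Rgs16, a regulator of G protein signalling, from 13.4 to 8.29 CPM (ratio 0.621, 0.559 to 0.688). The median log2 ratio of the 10 was -0.06. The 5 counted genes of uptake and phosphorylation had no call.

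The last list held 15 other genes chosen because β cells are known to keep them low, so their direction against other classes follows from the choice. All 12 of them with enough UMIs were at least 2-fold lower in β-like cells than the median of the other classes in both libraries, beside Hk1 and Ldha, against the 19.4% of all genes given above. None of the 12 was called between HFD and WT, and their median log2 ratio was -0.11.

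**Figure D5:**
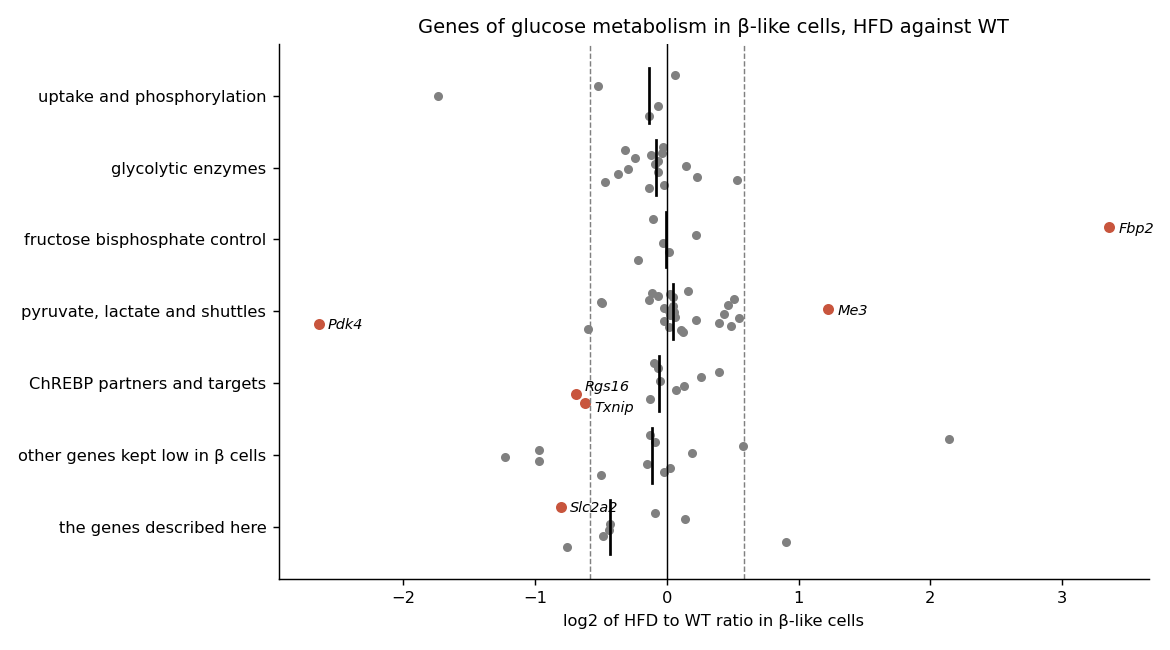
log2 of the HFD to WT ratio in β-like cells for each counted gene of the 6 lists and of the 9 genes described, with black lines at the median of a list, dashed lines at a fold of 1.5 and red points for genes called changed. Fbp2 and Me3 lay above, and Pdk4, Rgs16, Txnip and Slc2a2 below.

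The genes whose pattern over cell classes was most like that of each of the 9 were found by Pearson's r of log2(CPM + 1) over the 17 class sums of both libraries, which share libraries and depth. For G6pc2 they were Ero1lb (r = 0.923), Ins2 (0.875) and Mafa (0.871), and for Pcx they were Ucn3 (0.888), Insrr (0.829) and Mtif3 (0.808). Slc2a2, which is shared with ductal-like cells, had lower values, with Slc22a23 (0.799), Echdc2 (0.789) and Slc44a3 (0.787). For Pfkfb2 the nearest were Mfsd6l (0.828), Vstm2l (0.824) and Mtss1l (0.808), and for Mlxipl they were Slc33a1 (0.894), Golga4 (0.866) and Adi1 (0.861).

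Of the genes low in β-like cells, Ldha was nearest to Arpc1b (0.974), Txn1 (0.967) and Ppia (0.965), and Hk1 to Tmod3 (0.944), Fas (0.909) and Ybx1 (0.901). Slc2a1 was nearest to Cul1 (0.923), Epha2 (0.895) and Ndel1 (0.894), and Slc16a1 to Abcb1a (0.963), Gimap9 (0.897) and Impa2 (0.889), the last on few UMIs. Within the set, Hk1 and Ldha had r = 0.778 with each other and G6pc2 and Pcx 0.720.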

How the data were processed

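Raw UMI counts per gene and barcode were deposited by the authors, who made them with Cell Ranger 3.0.2 and the 10x Genomics mm10 index, with empty droplets removed and no further filter. The study's own maximum of 15000 UMIs was not applied here. Counts were scaled to 10000 per cell and square-root transformed, and 2000 variable genes, 50 principal components, 15 nearest neighbours and Leiden clustering (igraph 0.11.9, resolution 1) gave clusters, with the 9 genes, the listed genes and the hormone genes left out. Clusters not named β and of at least 60 cells were clustered again, and the final clusters were named by markers. The naming score and the splitting were settled after clusters had been seen, so classes are called β-like and so on. Doublet scores came from Scrublet (scanpy 1.11.5), leaving out 0.8% of barcodes per 1000 barcodes. UMIs were summed per class and library. Ratios have exact conditional binomial intervals, levels exact Poisson intervals and shares Clopper-Pearson intervals. UMI sums range from 47097 to 78921293 per class and library, so that a count of 3 UMIs, taken as the floor for classes at 0, is 63.7 CPM in the shallowest class and 0.0380 CPM in the deepest. The genes and lists were chosen with earlier results of these data known. All 9 genes were described, with the list genes called changed and the 3 genes most like each in pattern (among genes with at least 20 CPM in 1 class sum). List genes with values outside that rule were named after their values had been seen (Pgk1 and Ldhb). One item is not reported here. The ratio code was tested on simulated counts. Promoter windows are from RefSeq.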

Additional observations from a re-analysis of the deposited data

Results flagged for a closer look

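Slc2a1 had an HFD to WT ratio below 1 in β-like cells, 0.937 (95% counting interval 0.775 to 1.14), and above 1 with an interval that leaves out 1 in 3 other classes. It was 5.55 in α-like cells (2 and 16 UMIs), 1.75 in endothelial-like cells (46 and 54 UMIs) and 1.64 in ductal-like cells (123 and 41 UMIs). In macrophage-like cells it was 0.248 (0.00565 to 1.79) on 9 and 1 UMIs, below 1 as in β-like cells. These differences between classes were not tested, since each group was 1 library and cells are not replicates.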

How the results depend on the processing

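Slc2a2 was called lower in HFD β-like cells under each alternative but a fold of 2, with ratios from 0.491 to 0.606, and G6pc2 stayed between 1.04 and 1.13. The count of the 9 genes lower in HFD was 1 as reported, 4 with a maximum of 15000 UMIs (Slc2a2, Pfkfb2, Mlxipl, Pcx), 4 in cells of 15000 to 30000 UMIs, 4 at the lower fold tried, 2 with an insulin gate in place of clusters (Ldha added, 0.524) and 0 at a fold of 2. No gene was higher under these settings. The Ldha UMIs in β-like cells cannot be told apart from RNA of other cells, so the calls of Ldha say nothing of its level in β cells. The median log2 ratio of all genes was -0.16 with the UMI maximum, -0.19 in cells of 15000 to 30000 UMIs and -0.12 without hormone and mitochondrial genes. Of the list genes, 5 were changed as reported (3 lower, 2 higher), 8 with the UMI maximum and 8 with the insulin gate (6 lower in each), 11 with no doublets left out (8 lower), 11 in cells of 15000 to 30000 UMIs (10 lower, 1 higher), 3 with at least 100 UMIs (1 higher), and 5 were lower without hormone and mitochondrial genes. Against every other class rather than their median, 1 of the 9 genes was higher (G6pc2) and 0 lower. The share of β-like cells with a UMI was lower in HFD beyond both intervals for 3 genes as reported (2000 UMIs) and for 7 without thinning. The cause of these shifts was not tested. The sign for Hk1, on 3 and 7 UMIs, changed with the insulin gate and with doublets kept, and that for Slc2a1 with the UMI maximum and in cells of 15000 to 30000 UMIs, with intervals that hold 1 throughout. β-like cells could not be compared with other classes in cells of 15000 to 30000 UMIs, endothelial-like cells gave no value with doublets kept, where their clusters got no endothelial name, and Slc16a1 and Hk1 gave no log2 ratio where a library had no UMI. No paired analysis was possible because each group is 1 library. Genes under about 10 UMIs per class are limited by depth.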
